A study of Mus musculus with 6 samples.

Results

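The miR-101 family is a set of small regulatory RNAs cut from the hairpins Mir101a, Mir101b and Mir101c, and its members were taken by name from a table of mature mouse miRNAs. There were 5 of them among the 1546 miRNAs listed: mmu-miR-101a-3p, mmu-miR-101b-3p, mmu-miR-101c, mmu-miR-101a-5p and mmu-miR-101b-5p. The livers came from male C57BL/6 mice that were 8 weeks old when the diets began and were then fed for 16 weeks. The sample titles and tissue fields name mouse liver, while the culture fields of the same labels describe HepG2 cells, a human hepatoma line, and the libraries were taken as mouse liver. The NC group received a normal diet, and the MAFLD group received a high-fat diet, which is used as a model of metabolic dysfunction-associated fatty liver disease. There were 3 small RNA libraries per group, and no allele or drug was added in either group. The sources used here do not say whether a library holds 1 liver or a pool. Where the libraries of a group repeat the same animal or pool, the p-values given here measure only technical spread. Where they are pools of different mice, the p-values measure spread between pools.

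A miRNA guides an Argonaute protein to messenger RNAs that pair with its seed, the stretch near its 5′ end, and lowers the output of those messages. The 3p strand of the miR-101 hairpins is the known guide. Its best studied targets include Ezh2, the histone methyltransferase of Polycomb repressive complex 2, and Mcl1, which protects cells from apoptosis. MiR-101 is also known as an inhibitor of autophagy and is often low in liver cancer.

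The 3p-type members were nearly the same RNA with different annotated 5′ ends, which is shown by their mature sequences. They are given 5′ to 3′ with the seed, bases 2 to 8, in capitals, from RefSeq on GRCm38.p6.
mmu-miR-101a-3p: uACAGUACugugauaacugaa
mmu-miR-101b-3p: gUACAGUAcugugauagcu
mmu-miR-101c: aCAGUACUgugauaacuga
These names therefore carried 3 different annotated seeds. The 101b-3p annotation begins 1 base upstream of the 101a-3p start on the aligned hairpins, and the 101c annotation begins 1 base downstream of it. All 19 bases of mmu-miR-101c lie inside mmu-miR-101a-3p, whose length is 21 bases. MiR-101a-3p and miR-101b-3p share an unbroken run of 15 bases.

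The 5p strands are the other arms of the same hairpins, and they are shown because they were hardly read.
mmu-miR-101a-5p: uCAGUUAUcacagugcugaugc
mmu-miR-101b-5p: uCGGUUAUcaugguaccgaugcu
Their seeds differ from each other, and their longest common run is 7 bases. The 5p arms therefore differ far more between the hairpins than the 3p arms do.

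The hairpins differ around the 3p arm in a way that bears on which reads can be told apart. Each line gives 24 bases, which are the 3 bases before the first base of miR-101a-3p and the 21 bases of that miRNA, with bases that differ from Mir101a in capitals. The Mir101a and Mir101b sequences come from RefSeq and the Mir101c sequence from GENCODE M21.
Mir101a: agguacaguacugugauaacugaa
Mir101b: agguacaguacugugauaGcugaa
Mir101c: CUgCacaguacugugauaacugaU
Mir101b differs from Mir101a at 1 base of the window, A16G, with positions counted from 1 at the 5′ end of miR-101a-3p. Mir101c differs at 4 bases, and those inside the miRNA are U1C and A21U, at its outermost bases. A read that carries the first or the last base of miR-101a-3p therefore differs between Mir101a and Mir101c, and a read of the 19 bases between them does not.

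The genes lie on separate chromosomes of GRCm38. Mir101a (chr4:101346945-101347027, minus strand, 83 bases) lies in an exon of the long non-coding RNA gene E130102H24Rik on the same strand. Mir101b (chr19:29135279-29135375, plus strand, 97 bases) lies in an intron of Rcl1, a gene needed for ribosomal RNA processing, on the same strand. Mir101c (chr9:3038669-3038743, minus strand, 75 bases) overlaps no other gene in GENCODE M21. The mature miR-101a-3p is annotated at chr4:101346957-101346977 and the mature miR-101b-3p at chr19:29135338-29135356. No other miRNA gene lies within 10 kb of any of the 3, so none of them belongs to a miRNA cluster by that distance.

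Levels are in CPM, the reads of a miRNA scaled so that the listed miRNAs of a library sum to 1000000. Depth ran from 1336935 to 4685712 reads, and the smallest level taken as detectable, 3 reads, was between 0.640 and 2.24 CPM. The hepatocyte marker miR-122-5p was between 42159 and 85150 CPM in the NC libraries and between 55196 and 70527 CPM in the MAFLD libraries. It ranked 3 or 4 among all miRNAs of each library. The most read miRNA, miR-148a-3p, took 71.4%, 63.3% and 48.5% of the reads in NC replicates 1, 2 and 3 and 46.8%, 56.7% and 51.6% in MAFLD replicates 1, 2 and 3. A CPM value of any other miRNA is a share of a fixed total, and NC replicates 1 and 2 had the largest shares taken by miR-148a-3p.

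MiR-101b-3p was the most read member and ranked between 6 and 8 among all miRNAs of every library. Its level was 12207, 13029 and 22116 CPM in NC replicates 1, 2 and 3. In MAFLD replicates 1, 2 and 3 it was 26670, 25423 and 23523 CPM. All 3 MAFLD libraries lay above all 3 NC libraries, but NC replicate 3 was only 1407 CPM below the lowest MAFLD library. These values correspond to 1.22%, 1.30% and 2.21% of the reads in the NC livers and 2.67%, 2.54% and 2.35% in the MAFLD livers.

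MiR-101a-3p ranked between 13 and 16 and was read less often. Its level was 3357, 3301 and 6122 CPM in NC replicates 1, 2 and 3. In the MAFLD replicates it was 7579, 6881 and 7094 CPM. The order of the groups was the same as for miR-101b-3p, and the gap between the highest NC and the lowest MAFLD library was 759 CPM. Counting error was small beside this gap, since the 95% Wilson interval was 5991 to 6256 CPM in NC replicate 3 and 6806 to 6956 CPM in MAFLD replicate 2.

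MiR-101c had almost the same values as miR-101a-3p in every library. Its level was 3357, 3301 and 6121 CPM in NC replicates 1, 2 and 3 and 7578, 6880 and 7092 CPM in the MAFLD replicates. The recovered reads of the pair differed by 1, 0 and 1 in the NC libraries and by 1, 4 and 3 in the MAFLD libraries, which is 10 of 85254 reads of miR-101a-3p in all. With the 19 shared bases, this means that the entries describe one set of reads counted under both names, and they are not independent measurements. How many of these reads came from Mir101c was not tested, as the deposited values hold no read sequences.

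**Figure D1:**
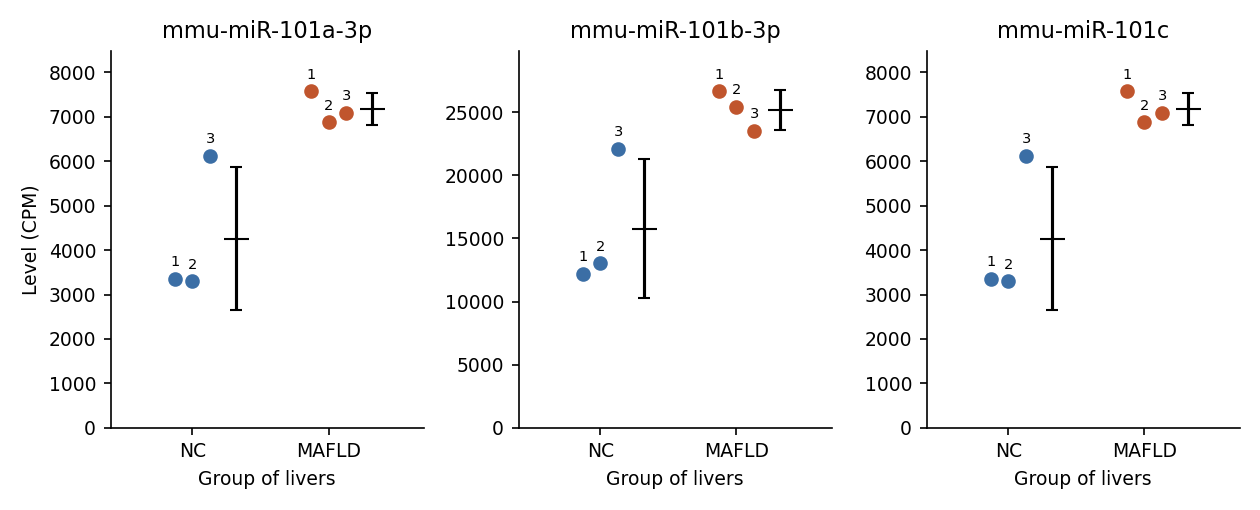
Level in CPM (vertical axes, each from 0) of mmu-miR-101a-3p, mmu-miR-101b-3p and mmu-miR-101c in the NC and MAFLD livers (horizontal axes). Points are libraries with their replicate numbers, and the bar gives the mean and SD of 3 libraries. NC replicate 3 lies near the MAFLD libraries in all panels, and the panels of miR-101a-3p and miR-101c cannot be told apart.

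The spread within the groups was unequal. The NC libraries had a coefficient of variation of 37.9% for miR-101a-3p and 34.8% for miR-101b-3p. In the MAFLD libraries these were 4.98% and 6.29%. The wide spread of the NC group came from replicates 1 and 2 lying low and replicate 3 lying high for both miRNAs.

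The 5p arms were at or below the limit of detection. MiR-101a-5p had 3, 0 and 0 reads in the NC replicates and 1, 0 and 1 in the MAFLD replicates. MiR-101b-5p had 0 reads in every NC library and 0, 2 and 0 reads in the MAFLD replicates. Neither reached the mean of 1 CPM needed for testing, and no fold change is given for them.

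The guide arm therefore made up nearly all reads of both hairpins. The 5p arm took 0.00586% of 85259 reads of Mir101a (95% Wilson interval 0.00250% to 0.0137%) and 0.000651% of 307453 reads of Mir101b (0.000178% to 0.00237%). Among the 79 hairpins listed with both arms and at least 1000 reads, the median share of the minor arm was 1.20%. Mir101b had the second lowest share of these hairpins and Mir101a ranked 4 from the lowest. The Mir101a reads include those also entered as miR-101c, and the intervals cover counting error only, since reads amplified by PCR without molecular identifiers are not independent molecules.

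**Figure D2:**
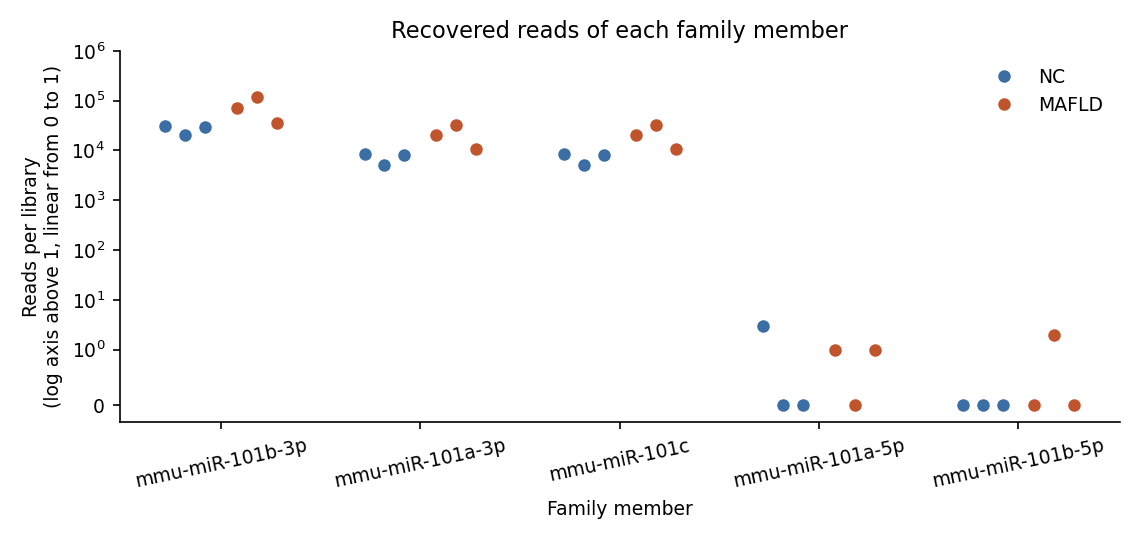
Recovered reads per library (vertical axis, logarithmic above 1 and linear from 0 to 1) of the 5 family members (horizontal axis), with NC libraries in blue and MAFLD libraries in orange, each in the order of replicates 1 to 3. The 3p-type members lie between 5181 and 119125 reads, and the 5p arms have 3 reads at most.

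The balance between the hairpins' guide strands stayed within a narrow range across the libraries. The ratio of miR-101b-3p to miR-101a-3p reads was 3.64, 3.95 and 3.61 in NC replicates 1, 2 and 3. It was 3.52, 3.69 and 3.32 in the MAFLD replicates. The groups overlapped, with means of 3.73 ± 0.19 and 3.51 ± 0.19 (SD, n = 3 each). In every library the miR-101b-3p part of the pair's summed reads lay within 76.8% and 79.8%.

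The comparison of MAFLD with NC livers asks which miRNAs change with the fatty liver model. The mean level of miR-101a-3p was 4260 ± 1613 CPM in NC and 7185 ± 358 CPM in MAFLD livers (SD, n = 3 each), 1.69-fold higher in MAFLD. That of miR-101b-3p was 15784 ± 5499 CPM in NC and 25206 ± 1585 CPM in MAFLD livers, 1.60-fold higher. Neither difference passed the threshold of an adjusted p of 0.05 in limma. On the scale of log2(CPM + 1), the difference was 0.82 for miR-101a-3p (SE 0.30, 95% interval 0.17 to 1.46, limma with Benjamini-Hochberg adjusted p = 0.208). It was 0.73 for miR-101b-3p (SE 0.28, interval 0.14 to 1.31, limma adjusted p = 0.208). The 0.82 of miR-101c repeats that of miR-101a-3p, as their reads are shared. A two-sided exact permutation test gave p = 0.1 for each of the 3, which is the smallest value that 3 against 3 libraries allow. In bulk tissue, fewer cells that hold a miRNA and less of it per cell cannot be told apart.

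Of the 5 members, 3 had a mean of at least 1 CPM and were among the 501 miRNAs tested. All 3 were well above this filter in both groups. By limma, 0 of the 3 passed an adjusted p of 0.05, against 1 of 501 miRNAs (0.200%), and edgeR and DESeq2 on the recovered reads called 0 members as well. At an unadjusted limma p under 0.05, all 3 were higher in MAFLD, as were 67 of 501 miRNAs (13.4%), while 23 were lower. The same count of members was 0 of 3 under median-ratio scaling, by limma without trend, by edgeR and by DESeq2, and also when NC replicate 1, NC replicate 2 or MAFLD replicate 1 was left out, and 2 of 3 without MAFLD replicate 2. With median-ratio scaling, the counts over all tested miRNAs were 36 higher and 45 lower. Every MAFLD library was above every NC library for all 3, as for 76 of 501 miRNAs (15.2%). The 3 names stand for 2 sets of reads.

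A general shift lay under these differences. The median log2 fold change of all 501 tested miRNAs was 0.43, so that miR-101a-3p was 0.39 and miR-101b-3p 0.30 above it. The fold change of miR-101a-3p was larger than that of 76.0% of the tested miRNAs, and that of miR-101b-3p larger than that of 71.1%. The excess over the median changed with the treatment of low miRNAs. It was 0.58 and 0.49 with a pseudocount of 5 CPM and 0.66 and 0.57 without a filter. With a filter at a mean of 10 CPM it was 0.25 and 0.16.

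**Figure D3:**
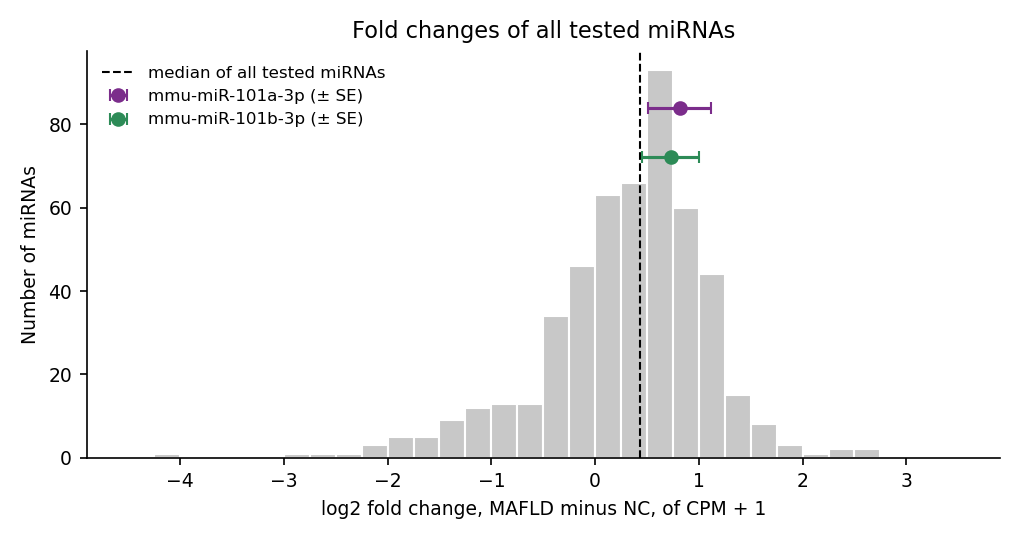
Number of miRNAs (vertical axis) by log2 fold change of CPM + 1, MAFLD minus NC (horizontal axis), for the 501 tested miRNAs, with the median of all as a dashed line. The points with bars are miR-101a-3p at 0.82 and miR-101b-3p at 0.73 with their SE, placed at free heights, and the SE bar of each stays above 0.

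Scaling decided how large the difference was. Median-ratio scaling, which sets the typical miRNA to the same level in every library, brought the log2 difference to 0.35 for miR-101a-3p (limma adjusted p = 0.323) and to 0.26 for miR-101b-3p (adjusted p = 0.490). The median of all miRNAs was then 0.04. Scaled values of miR-101a-3p were 5307, 4255 and 4883 in the NC replicates and 5874, 7139 and 5428 in the MAFLD replicates, and the groups still did not overlap. Those of miR-101b-3p were 19298, 16794 and 17641 in the NC replicates and 20669, 26378 and 17999 in the MAFLD replicates. Here NC replicate 1 was above MAFLD replicate 3, so the groups of miR-101b-3p overlapped. With this scaling 58 of 501 miRNAs (11.6%) had every MAFLD library above every NC library, and 46 had the reverse order. Both members stayed higher on average in MAFLD livers under this scaling.

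The same point can be read from the share of the family. The members were summed with miR-101c left out, so that no read enters the sum under both names. The read totals still held both entries. The summed share was 1.56%, 1.63% and 2.82% of the reads in the NC replicates. It was 3.42%, 3.23% and 3.06% in the MAFLD replicates, a ratio of the means of 1.62. Per reads other than those of miR-148a-3p, the share was 5.44%, 4.45% and 5.49% in the NC replicates and 6.43%, 7.47% and 6.33% in the MAFLD replicates, a ratio of 1.32. NC replicate 3 was close to the MAFLD libraries in the first measure and beside NC replicate 1 in the second. The groups did not overlap in either. Among single miRNAs, such an order was seen for 76 of 501 (15.2%) by CPM, with 21 in the reverse order. By CPM without miR-148a-3p it was seen for 70 of 500 (14%), with 38 in the reverse order.

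**Figure D4:**
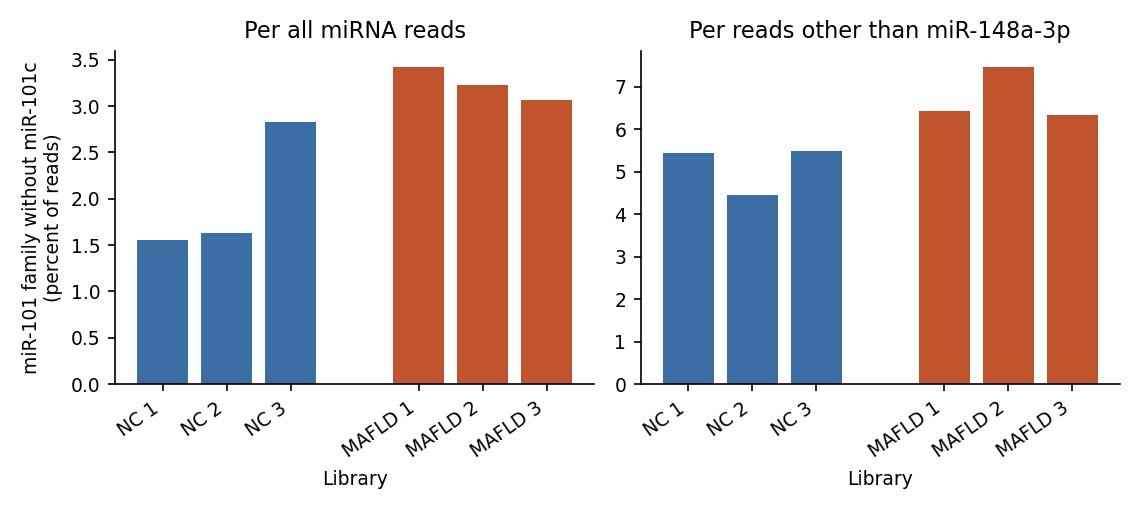
Summed share of the miR-101 family without miR-101c, in percent of reads (vertical axes from 0), in each library (horizontal axes), of all miRNA reads on the left and of reads other than those of miR-148a-3p on the right. On the left NC replicates 1 and 2 are far below the others, and on the right the 3 NC libraries lie between 4.45% and 5.49% and the MAFLD libraries between 6.33% and 7.47%.

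NC replicate 3 decided the test. Without it, the log2 difference was 1.11 for miR-101a-3p and 1.00 for miR-101b-3p, with an adjusted limma p of 0.00211 for each, and all 3 tested members were called. At that setting 128 of 498 miRNAs were called, so that the change was not particular to the family. When NC replicate 3 was dropped under median-ratio scaling, an alternative chosen after seeing the data, the differences were 0.40 and 0.29 (adjusted p = 0.266 and 0.439).

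**Figure D5:**
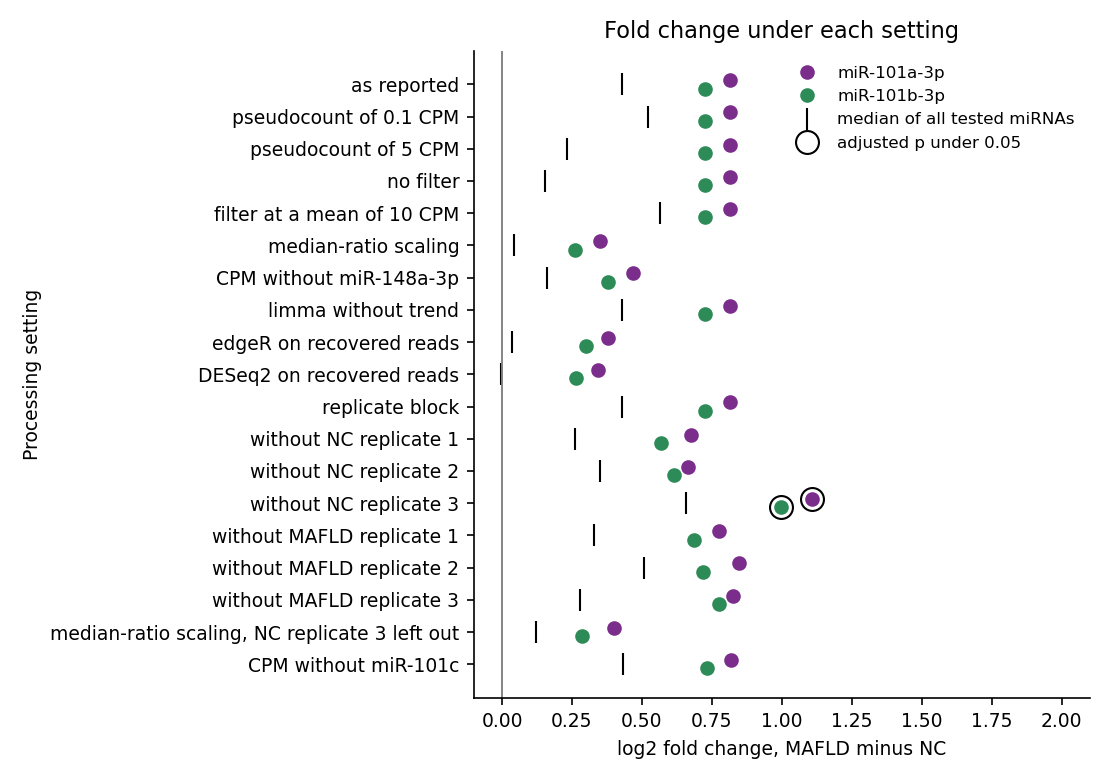
Log2 fold change, MAFLD minus NC (horizontal axis), of miR-101a-3p and miR-101b-3p under each way of processing (vertical axis), with the median of all tested miRNAs as a tick and a ring where the adjusted p was under 0.05. The values lie above 0 throughout, between 0.34 and 1.11 for miR-101a-3p and between 0.26 and 1.00 for miR-101b-3p, and rings appear only without NC replicate 3.

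Of the marker lists, the brain, hepatocyte and endothelial miRNAs set NC replicates 1 and 2 apart from all other libraries. The brain sum was higher in these replicates, and the hepatocyte and endothelial sums were lower. The summed level of 5 brain miRNAs was 466 and 751 CPM in NC replicates 1 and 2, where the family was lowest, and 50.1 CPM in NC replicate 3. In the MAFLD libraries it was between 44.6 and 64.5 CPM. Of these 5, limma and edgeR called 0 at an adjusted p of 0.05, with 2 lower at an unadjusted limma p under 0.05, and DESeq2 called 3. In NC replicate 3 and MAFLD replicate 1, miR-124-3p, miR-138-5p and miR-9-3p of this list were at 0. The 2 hepatocyte miRNAs summed to 42311, 54577 and 85374 CPM in NC replicates 1, 2 and 3. In the MAFLD libraries their sum was between 55517 and 70927 CPM, so the groups overlapped. The 2 endothelial miRNAs summed to between 4710 and 6587 CPM in NC and between 7659 and 10155 CPM in MAFLD libraries, without overlap. Such an order was also seen for 76 of 501 miRNAs (15.2%). Most of this sum was miR-126a-3p. MiR-126a-5p alone overlapped, with 289 CPM in NC replicate 3 and 280 CPM in MAFLD replicate 2. The part of the brain, hepatocyte and endothelial markers in the family's difference was not tested.

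The other marker sums overlapped between the groups. The 4 blood miRNAs summed to between 602 and 1212 CPM in NC and 431 and 1000 CPM in MAFLD libraries, and the 6 immune miRNAs to between 1616 and 3061 CPM and between 2223 and 3314 CPM. The 5 stellate or mesenchymal miRNAs summed to between 12612 and 30033 CPM in NC and between 19775 and 26950 CPM in MAFLD libraries. Muscle miRNAs, of which 4 of 5 were listed, were between 37.1 and 241 CPM over all libraries, and the 4 pancreas miRNAs were between 1.57 and 9.77 CPM.

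Ratios within a library do not depend on scaling, and they were formed between each guide strand and 16 miRNAs known to be abundant in liver. For miR-101a-3p, the ratio was higher in every MAFLD than in every NC library against 4 of the 16, which were miR-122-5p, miR-21a-5p, miR-30a-5p and miR-143-3p. For miR-101b-3p this was so against 3 of them, miR-122-5p, miR-21a-5p and miR-30a-5p. The groups overlapped for the other miRNAs of the list. The 4 miRNAs named for miR-101a-3p had log2 fold changes, in that order, of 0.14, -0.28, 0.50 and 0.05, below the list median of 0.52. How many other tested miRNAs give such ratios was not counted, so these counts do not set the family apart. The ratio of miR-101b-3p to the hepatocyte miRNA miR-122-5p was 0.290, 0.239 and 0.260 in the NC replicates and 0.378, 0.461 and 0.347 in the MAFLD replicates. Against miR-192-5p, another abundant liver miRNA, it was 0.210, 0.195 and 0.297 in the NC replicates and 0.272, 0.289 and 0.286 in the MAFLD replicates, so that NC replicate 3 was the highest. The other hepatocyte marker, miR-122-3p, was outside the list, and no ratio to it was formed. Its log2 difference was 0.93 (limma adjusted p = 0.212), above those of both guide strands, and its groups did not overlap. The mean ratio was higher in MAFLD than in NC libraries against 13 of the 16 for miR-101a-3p and against 12 for miR-101b-3p. Among all tested miRNAs, their log2 fold changes were larger than those of 76.0% and 71.1%. The ratios of a member share its reads and the same libraries, so they are not independent of each other.

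Those 16 miRNAs gave the setting for the family's own difference. By limma and by edgeR 0 passed the adjusted threshold, and by DESeq2 1 did, miR-21a-5p. Of the 16, 5 were higher in MAFLD and 0 lower at an unadjusted limma p under 0.05, against 13.4% higher over all 501, and their median log2 fold change was 0.52 beside 0.43 for all tested. Let-7a-5p, of the let-7 family known for restraining growth genes, had the largest difference in this list, 0.99 (limma adjusted p = 0.152), and let-7f-5p had 0.65 (adjusted p = 0.212). MiR-122-5p, which is made almost only in hepatocytes, had 0.14 (adjusted p = 0.800), and miR-21a-5p, known from inflamed and fibrotic tissue, had -0.28 (adjusted p = 0.581).

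Other miRNAs known to repress Ezh2 differed in sign among themselves. Of 6, 0 passed the adjusted threshold by limma, edgeR or DESeq2, while 2 had higher and 1 had lower levels in MAFLD at an unadjusted p under 0.05, beside 67 higher and 23 lower of all 501 (13.4% higher). Their median log2 fold change was 0.52, against 0.43 for all tested. MiR-26b-5p had a difference of 1.03 (limma adjusted p = 0.208), and miR-26a-5p, which shares its seed, had 0.46 (adjusted p = 0.500). MiR-214-3p had 1.29 (adjusted p = 0.223). MiR-124-3p, a neuronal miRNA, had -2.68 (adjusted p = 0.208), with 13.7 and 28.7 CPM in NC replicates 1 and 2 and 0.652 CPM or less in the other libraries.

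MiRNAs known to act on autophagy genes likewise differed among themselves. Of 11, 0 passed the adjusted threshold by limma or edgeR and 1 by DESeq2, miR-34a-5p. By limma, 4 had higher and 1 had lower levels in MAFLD at an unadjusted p under 0.05, against the same 13.4% higher over all 501. Their median log2 fold change was 0.75, against 0.43 for all tested. MiR-34a-5p, whose gene is a transcriptional target of p53, was 30.6, 29.3 and 56.1 CPM in the NC replicates and 141, 74.1 and 98.4 CPM in the MAFLD replicates, a log2 difference of 1.43 (limma adjusted p = 0.152). MiR-17-5p and miR-20a-5p, which share a seed and a cluster, had 1.08 and 1.13 (adjusted p = 0.212 and 0.208). MiR-376b-3p, a repressor of Atg4c and Becn1, had -1.79 (adjusted p = 0.208). MiR-30a-5p, another repressor of Becn1, had 0.50 (adjusted p = 0.331).

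Seed cores were compared with those of all mature miRNAs in the RefSeq set, which held 1312 of the 1546 listed names. Bases 2 to 7 of miR-101a-3p are also those of miR-144-3p, an erythroid miRNA from chr11:78073047-78073066, and bases 2 to 7 of miR-101b-3p are those of miR-582-5p from chr13:109324753-109324774. None of the compared miRNAs outside the family shares bases 2 to 7 of miR-101c. The sequences are given with bases 2 to 8 in capitals.
mmu-miR-144-3p: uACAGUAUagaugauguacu
mmu-miR-582-5p: aUACAGUUguucaaccaguuac
MiR-144-3p was 23.9, 11.5 and 14.2 CPM in the NC replicates and 11.6, 5.12 and 14.3 CPM in the MAFLD replicates, and the groups overlapped. Its log2 difference was -0.67 (SE 0.52, limma adjusted p = 0.482), opposite in sign to that of miR-101a-3p. MiR-582-5p was at 0 in the NC libraries and at 0.750, 1.28 and 2.61 CPM in the MAFLD replicates and was not tested. Both were far below the guide strands of the miR-101 family in every library.

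Across the 6 libraries, miR-101a-3p and miR-101b-3p had a Pearson correlation of log2(CPM + 1) of 0.992. The miRNAs with the pattern most like miR-101a-3p were miR-15a-5p (r = 0.989), miR-30b-5p (0.985), miR-378c (0.982), miR-872-3p (0.980) and miR-10a-5p (0.978). For miR-101b-3p they were miR-532-5p (0.989), miR-15a-5p (0.987), miR-214-3p (0.985), miR-10a-5p (0.982) and miR-30b-5p (0.980). Such values were common, since 18.1% of 498 miRNAs had r over 0.9 with miR-101a-3p and 15.7% with miR-101b-3p. The libraries share the scaling to a fixed total and the share taken by miR-148a-3p, so these values describe likeness across the 6 libraries only.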

How the data were processed

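Small RNA was sequenced in 3 NC and 3 MAFLD liver libraries after treatment that removes RNA modifications blocking adapter ligation. The values deposited by the authors are CPM, scaled to the reads on all listed miRNAs of a library. The submitters' processing notes name FastQC, cutadapt, Bowtie, edgeR and GRCm38, without versions. The rule for reads that match several miRNAs is not given in the sources used here. Reads were recovered as multiples of the smallest value, and 100% of values came within 0.02 of a whole number.

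Groups were compared with limma 3.58.1 (lmFit, eBayes with trend) in R 4.3.3 on log2(CPM + 1). The 501 miRNAs that averaged 1 CPM or more over the libraries entered, with Benjamini-Hochberg adjustment over all of them. This fold change understates the change of low miRNAs. Exact permutation tests used scipy 1.17.1. Wilson intervals are at 95%. Alternatives were other pseudocounts and filters, median-ratio scaling, CPM without miR-148a-3p, limma without trend, edgeR 4.0.16 and DESeq2 1.42.0 on recovered reads, the replicate number as a block, and each library left out. The fits were also run on simulated reads with changes larger than those of the members and balanced in direction. That check does not bear on the scaling or on differences of the members' size.

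Named are the members, miRNAs that share bases 2 to 7 with one, miRNA genes within 10 kb, the marker, liver, Ezh2 and autophagy lists, and the 5 miRNAs most correlated with each guide strand. MiR-148a-3p was also used for scaling. Members and lists were chosen with earlier results of these data known. Sequences are from RefSeq (GRCm38.p6), where 1312 of 1546 names matched, and genes from GENCODE M21.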

Additional observations from a re-analysis of the deposited data

How the results depend on the processing

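The log2 differences of miR-101a-3p and miR-101b-3p were positive under each of 18 alternatives and passed an adjusted p of 0.05 under 1 of them, which left out NC replicate 3 (adjusted p from 0.00211 to 0.601 over the alternatives). With 1 library left out in turn they ran from 0.66 to 1.11 and from 0.57 to 1.00. The number of members called was 0 to 3 over these. CPM without miR-148a-3p gave 0.47 and 0.38, edgeR 0.38 and 0.30, and DESeq2 0.34 and 0.26. The count of all miRNAs called, 1 as reported, was 11 without a filter, 2 with median-ratio scaling, 2 without miR-148a-3p, 32 by DESeq2, and 36 when NC replicate 3 was dropped under median-ratio scaling. It was 0 by limma without trend, with 74 at an unadjusted p under 0.05, and 0 to 128 with 1 library left out (36 to 178 at an unadjusted p under 0.05). Unadjusted calls were 67 higher and 23 lower as reported, 52 and 38 without miR-148a-3p, 37 and 50 by edgeR, and 29 and 54 by DESeq2. The cause was not tested. The summed family level in MAFLD livers was 39574 CPM with miR-101c and 32391 CPM without it, because the shared reads then count once.

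With the replicate block the count of all miRNAs was 5 and the members had 0.82 and 0.73 (adjusted p = 0.241 and 0.248). Libraries of the same number had correlations of their deviations between -0.046 and 0.012, and those of unlike number between -0.163 and 0.129. These values gave no sign of a pairing by number. With 3 libraries per group they cannot decide whether one exists. Among the members, depth limits only the 5p arms. Other named miRNAs, such as miR-376b-3p, miR-124-3p and miR-582-5p, were also at or near the detection limit in some libraries.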
